A study of Arabidopsis thaliana with 3 samples.

Results

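The array described here compared whole-seedling RNA of Arabidopsis thaliana (Col-0) after 60 minutes under 10 µM IAA (indole-3-acetic acid, an auxin that plants make themselves) with RNA of seedlings kept for the same time in the 0.1% ethanol carrier. Per the labels, both sets of seedlings were 4 days old, had been stratified and then kept in darkness at 25 °C, and were submerged, so that darkness and submergence are shared by both sides of every ratio. The members are all probes with a value on this array, 21932 of the 21939 in the table. They came down to 12137 named genes and 9738 probes that carry no gene name here. The series holds 2 further arrays of the same comparison, at 20 and 40 minutes, which are used below only to place the 60 minute values. There was 1 array per time and no replicate, so the values carry no replicate error and no test was made. Each value is a log2 ratio of both channels on its array, so that 1 is a 2-fold difference and 0 is none. A ratio gives no level of a transcript, and the labelled tissue could not be set against marker genes.

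The labels put the ethanol RNA in channel 1 and the IAA RNA in channel 2, but do not say which channel is the numerator. Values are therefore called positive or negative as deposited. A positive value most likely means a higher signal with IAA than with ethanol, on the basis of the channel order and of the GH3 and LBD genes, textbook auxin-induced genes, which lie there. Since these genes helped to choose the direction, their sign is not a separate result.

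Auxin is sensed in the nucleus by TIR1/AFB receptors, which mark Aux/IAA repressors for destruction and so release auxin response factors. Among the first transcripts to accumulate in many tissues are those of the Aux/IAA genes themselves, of SAUR genes and of GH3 genes. GH3 enzymes join IAA to amino acids and so lower the pool of free hormone. LBD16 and LBD29 encode transcription factors that act in lateral root initiation.

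Most transcripts lay close to 0 after 60 minutes. The middle 50% of named genes lay between -0.06 and 0.10, and 84.9% lay within 0.25 of 0. The deposited ratios ran from 0.43 to 20.07. At or beyond 2-fold were 42 positive genes of the 12137 with a name (0.346%) and 3 negative ones (0.0247%). At or beyond 1.5-fold they numbered 272 (2.24%) and 41 (0.338%). The largest ratios were all on the positive side: 10 genes reached 3-fold, 6 reached 4-fold and 3 reached 8-fold, against 0 negative genes at 3-fold. The robust SD over probes, a measure of the width of the whole array, took values of 0.165, 0.221 and 0.110 over the 20, 40 and 60 minute arrays. The 60 minute array was thus the narrowest in its bulk, and it also held the highest ratio of the 3.

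**Figure D1:**
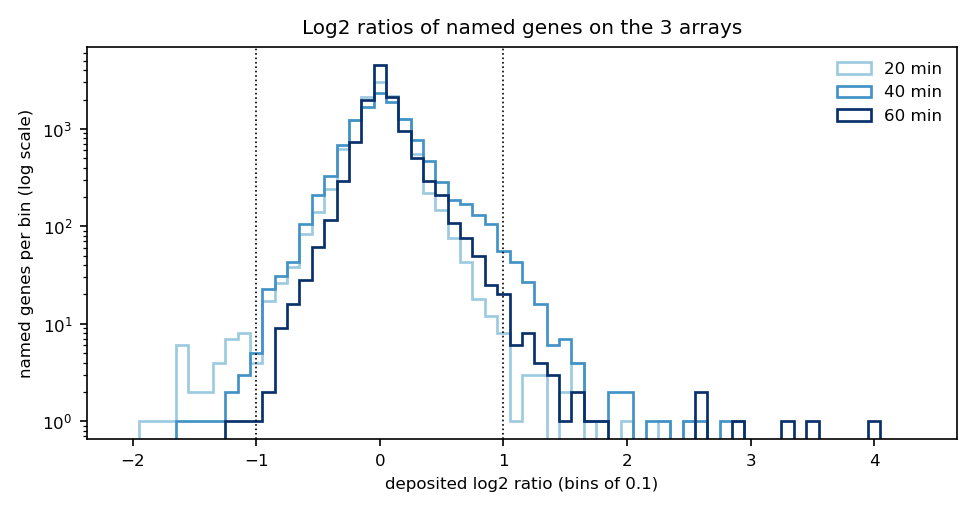
Number of named genes per bin of 0.1 (vertical log axis) against the deposited log2 ratio at 20, 40 and 60 minutes, 1 line per array, with dotted lines at 2-fold. The 60 minute array has the lowest robust SD, 0.110, taken over all probes, named or not. Its line reaches farthest on the positive side among named genes, to 4.02.

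GH3 genes gave the 3 highest ratios of all named genes. GH3.3 had log2 ratios of 2.0, 2.47 and 4.02 at 20, 40 and 60 minutes, the last a ratio of 16.17. GH3.1 had 2.45, 2.85 and 3.54, and GH3.4 had 0.52, 1.97 and 3.32. GH3.4 was thus below 1.5-fold at 20 minutes and within 0.25 of GH3.1 at 60 minutes. WES1, which is GH3.5 and also acts on IAA, had 0.77, 0.61 and 1.82. The other members of the family that were measured lay near 0: GH3.9 had 0.11, 0.32 and 0.33, and GH3.17 had 0.34, -0.18 and 0.15. The 6 GH3 genes had medians of 0.65, 1.29 and 2.57 at the 3 times. GH3.1, GH3.3 and GH3.4 are close relatives in sequence, and how far their probes read each other's transcripts was not tested.

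The lateral root factors followed. LBD29 had log2 ratios of 1.58, 2.16 and 2.91 at 20, 40 and 60 minutes, and LBD16 had 1.62, 1.94 and 2.56. Both were at least 2-fold positive at every time. LOB, the founding gene of the LBD family and a gene of organ boundaries, lay at -0.14, 0.16 and -0.30. The other factors of roots and lateral organs were near 0 at 60 minutes: PUCHI, an AP2-type lateral root factor, at 0.04, SHI at -0.01, the receptor kinase CR4 at -0.07 and BBM at -0.12. The positive side was thus held by LBD16 and LBD29 and not by these 4 genes of the root and lateral organ list.

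HAT2, a class II HD-Zip transcription factor, was already near its 60 minute value at the first time, with 2.33, 2.30 and 2.56. PHV, a class III HD-Zip factor of organ polarity, had -0.17, -0.14 and 0. WAG2, an AGC kinase of the PINOID group that phosphorylates PIN auxin efflux carriers, had 1.19, 1.56 and 1.46. Its relative PID2 had 0.07, 0.03 and 0.21. In both lists 1 measured member was beyond 2-fold and the other lay within 0.25 of 0.

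The Aux/IAA and SAUR genes that were matched by name lay closer to 0. They are a part of each family, and the other members were not described. Of 5 Aux/IAA genes, IAA30 had 0.54, 1.06 and 0.53, IAA34 had 0.04, 0.30 and 0.45, and IAA20 had -0.01, -0.06 and 0.15. IAA18 had -0.03, -0.20 and -0.01. IAA31 had 1.19, 0.04 and -0.36, the lowest 60 minute value of all measured auxin-list genes. None of the 5 reached 1.5-fold at 60 minutes. Of 3 SAUR genes, AT2G18010 (SAUR10) had 0.42, 0.93 and 0.69, AT4G34800 (SAUR4) had 0.19, -0.18 and -0.06, and AT1G43040 (SAUR58) had -0.12, 0.04 and -0.25. SAUR10 was the single listed member of these 2 families past 1.5-fold at 60 minutes.

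The YUC genes encode flavin monooxygenases of IAA synthesis, and all 3 measured ones lay slightly below 0. YUC6 had -0.18, YUC11 had -0.22 and YUC4 had -0.23 at 60 minutes, against 0.15, 0.25 and 0.23 at 20 minutes. All 3 values are within 0.25 of 0, as are those of most named genes. No TIR1/AFB receptor, auxin response factor or enzyme of IAA conjugate hydrolysis or oxidation was matched by name here. These lists were not analysed.

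Across the 8 auxin lists with a measured member, 16 of 28 genes lay above 0, 11 below 0 and 1 at 0. Their median was 0.15, against 0.01 over all named genes. At least 1.5-fold positive were 9 of the 28 (32.1%, against 2.24% of all named genes), and 0 were 1.5-fold negative. The remaining auxin genes stayed close to 0, with 18 of 28 within 0.5 of it. The share of auxin genes among the positive genes grew with the size of the ratio: 9 of 272 at 1.5-fold, 8 of 42 at 2-fold, 7 of 10 at 3-fold and 6 of 6 at 4-fold. Since the lists were written with earlier results of these data known, these shares are a description.

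**Figure D2:**
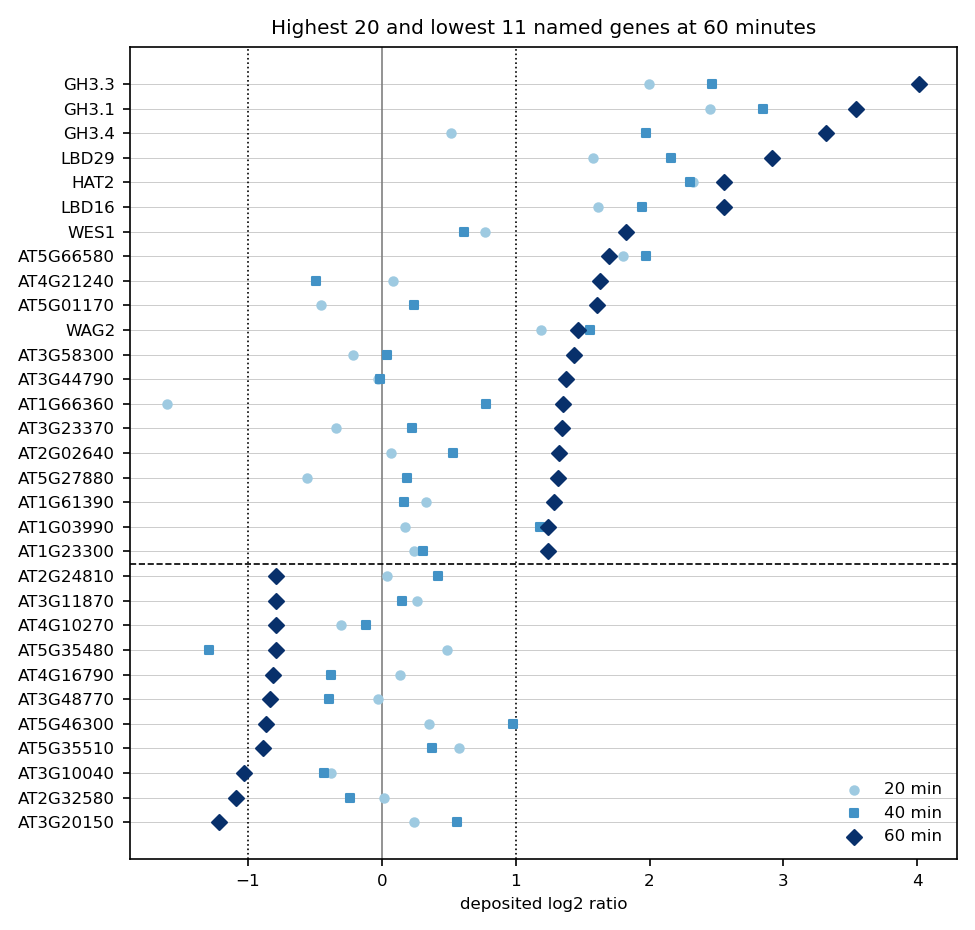
Deposited log2 ratio (horizontal axis) at 20, 40 and 60 minutes for the 20 highest named genes at 60 minutes, above the dashed line, and the 11 lowest, below it; each symbol is 1 array, and dotted lines mark 2-fold. The upper 6 genes (GH3.3, GH3.1, GH3.4, LBD29, HAT2 and LBD16) lie above 2.5 at 60 minutes, and the lowest gene lies at -1.22.

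The other genes among the highest 20 are known in the tables used here by their locus code alone. AT5G66580 had 1.80, 1.97 and 1.70 at 20, 40 and 60 minutes, the one of these that was beyond 2-fold at every time. AT1G03990 had 0.18, 1.18 and 1.24. The other codes differed: AT4G21240 had 0.08, -0.49 and 1.63, AT5G01170 had -0.45, 0.24 and 1.60, AT3G58300 had -0.22, 0.04 and 1.43, and AT3G44790 had -0.03, -0.01 and 1.37. These 4 were high at 60 minutes alone. AT3G23370 (1.34), AT2G02640 (1.33), AT5G27880 (1.32), AT1G61390 (1.29) and AT1G23300 (1.24) were also below 1.5-fold at both earlier times. AT1G66360 stood apart with -1.60, 0.78 and 1.36.

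The further 22 genes past 2-fold lay between 1.01 and 1.24. They include bZIP58, a bZIP transcription factor, with 0.43, 0.07 and 1.20, and AT1G08440 with 0.10, 0.01 and 1.24. AT3G51410 had 0.72, 1.25 and 1.21, AT4G09890 had 0.98, 0.74 and 1.18, and AT1G03820 had 0.66, 0.85 and 1.13. AT1G68360 had 1.48, 1.53 and 1.05, and so was lowest at the last time. The pseudogene AT1G36110 had 1.06 at 60 minutes.

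The 42 genes fell into groups by their earlier values. At least 1.5-fold positive at both 20 and 40 minutes were 12 (28.6%): GH3.3, GH3.1, LBD29, HAT2, LBD16, WES1, AT5G66580, WAG2, AT3G51410, AT4G09890, AT1G03820 and AT1G68360. They had a median of 1.76 at 60 minutes, and 7 of them are in the auxin lists. A further 7 (16.7%) were 1.5-fold positive at 40 but not at 20 minutes, GH3.4 among them, with a median of 1.18. None was so at 20 minutes alone. The other 23 (54.8%) were below 1.5-fold on the positive side at both earlier times, with a median of 1.14 and a highest value of 1.63. None of the 23 is in an auxin list. These lists hold only 28 of the 12137 named genes, so 0 of 23 is near that share.

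For all named genes, 1.5-fold positive values made up 1.24% at 20 minutes and 5.73% at 40 minutes, and 1.5-fold negative values 1.28% and 1.38%. The 42 genes held 12 (28.6%) and 19 (45.2%) on the positive side at these times. The ratio was highest at 60 minutes in 37 of the 42, and 27 were higher at each later time. The 2-fold positive genes shared with 20 minutes numbered 8, which is 19.0% of the 42 and 40% of the 20 genes of that time. With 40 minutes 12 were shared, 28.6% of the 42 and 8.22% of the 146 of that time. With 1 array per time, a change over time and a difference between arrays cannot be told apart.

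**Figure D3:**
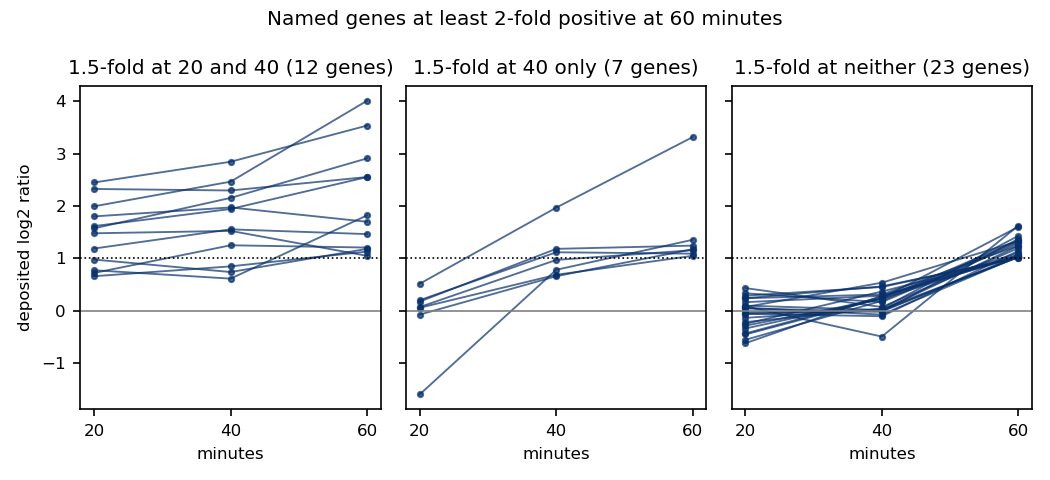
Deposited log2 ratio against minutes for the 42 named genes at least 2-fold positive at 60 minutes, 1 line per gene and 1 array per time, split by whether they were at least 1.5-fold positive at 20 and 40 minutes (12 genes), at 40 minutes alone (7) or at neither (23). The 23 genes of the right panel end between 1.01 and 1.63, and the left panel holds the genes that end at 4.02 and 3.54.

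The negative side was short and shallow. AT3G20150 had 0.24, 0.57 and -1.22 at 20, 40 and 60 minutes, and AT2G32580 had 0.01, -0.23 and -1.09. AT3G10040, which is HRA1, a transcription factor that dampens the response to low oxygen, had -0.38, -0.43 and -1.03. It was the one of these 3 genes that lay below 0 at every time. The next lowest were AT5G35510 at -0.89, AT5G46300 at -0.86, AT3G48770 at -0.84 and AT4G16790 at -0.81. AT5G35480, AT4G10270, AT3G11870 and AT2G24810 shared a value of -0.79. AT4G10270 was below 0 at all 3 times, with -0.30, -0.12 and -0.79, while AT5G35510 (0.58 and 0.38) and AT5G46300 (0.36 and 0.98) were above 0 at both earlier times. No gene was 2-fold negative at 60 minutes and at another time. Among all named genes only 34 were so at 20 minutes and 14 at 40 minutes, counts that leave little room for overlap with 3. The other members of the low-oxygen list, the pyruvate decarboxylases PDC3 and PDC2, lay at 0.15 and -0.10. Low-oxygen genes outside that list were not looked for.

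Outside the auxin lists, 35 lists of other pathways and families had a measured member, and 28 of them held none past 1.5-fold on either side. Of all named genes only 2.24% were 1.5-fold positive and 0.338% negative, so a short list with none is near these shares. The lists hold only genes matched by name or synonym, and 88.1% of named genes go by a locus code alone here. Further measured members of these pathways and families can therefore lie outside the lists, and the ranges below are those of the listed genes. The medians of the 16 lists with 10 or more members lay between -0.09 and 0.10. The MADS box list had the most members past 1.5-fold, 4 of 44 (9.09%, against 2.24% of all named genes), around a median of 0.04. AGL62, a factor of the endosperm, had -0.06, -0.15 and 0.89 at the 3 times, AGL67 had 0.03, 0.03 and 0.86, AGL72 had -0.45, 0.97 and 0.74, and AGL96 had 0.07, 0.18 and 0.70. AGL62, AGL67 and AGL96 were near 0 at both earlier times.

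Listed UDP-glycosyltransferases, which attach sugars to hormones and other small molecules, had a median of 0.04. Past 1.5-fold were 3 of 52 (5.77%), against 2.24% of all named genes. UGT85A3 averaged 0.91, but its 2 probes lay at 0.23 and 1.59. UGT71B5 had 0.10, 0.42 and 0.73, and UGT73C2 had -0.12, 0.63 and 0.61. Of 15 listed glutathione S-transferases, with a median of 0.10, GSTU15 alone passed 1.5-fold (6.67%), with 0.10, 0.43 and 0.84. Of 46 listed ubiquitin and proteasome genes, with a median of 0, the U-box ubiquitin ligase PUB23 alone did (2.17%), with 0.50, 0.30 and 0.72. The share of 2.17% is near the 2.24% of all named genes. Of 15 listed bHLH factors, with a median of -0.09, PIF7, a phytochrome-interacting factor of shade growth, had 0.32, 0.56 and -0.60. It alone of the 15 was past 1.5-fold negative (6.67%, against 0.338% of all named genes).

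Listed genes of the growing cell wall were near 0 in these seedlings, as were most named genes. Of 27 listed expansins and xyloglucan endotransglucosylases, which loosen and rejoin wall polymers, none was past 1.5-fold. With 2.24% of all named genes positive and 0.338% negative at that size, 0 of 27 is near the shares of the array. The 27 genes lay between XTH21 at -0.40 and XTH29 and XTH33 at 0.37, with a median of -0.01. The 61 listed pectin and wall synthesis enzymes lay between GH9B11 at -0.29 and GH9A4 at 0.31, with a median of 0. No plasma membrane proton pump was matched by name. The 7 listed subunits of the vacuolar-type proton pump, which acidifies inner compartments and not the wall, lay between -0.07 and 0.01. Root hair expansins EXPA7 and EXPA18 lay at -0.10 and -0.27.

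Listed genes of other hormones were also below 1.5-fold, as were most named genes. Cytokinin genes (7) lay between RR22 at -0.34 and RR19 at 0.49, both response regulators. Ethylene genes (3) lay between EIN3, the main transcription factor of that pathway, at -0.20 and RTE1 at 0.07. Gibberellin receptors GID1B and GID1C had 0.06 and -0.07. JMT and OPCL1 of jasmonate metabolism had 0.20 and 0.19, and the brassinosteroid receptor relative BRL1 had 0.06. The 10 genes of abscisic acid, cold and drought lay between COR47 at -0.27 and LTI30 at 0.16.

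Listed regulators and transport genes gave a like picture. The 9 listed WRKY factors lay between WRKY42 at -0.30 and WRKY47 at 0.23, and the 5 listed AP2/ERF factors between tny at -0.47 and SHN3 at 0.11. The NAC list held NAC014 alone, at 0.51. The 20 histone and chromatin genes lay between CHR42 at -0.43 and CHR18 at 0.51. The 29 nutrient and sugar transporters lay between SWEET8, a sugar carrier, at -0.30 and NAXT1, a nitrate exporter, at 0.43. The 24 cytochromes P450 lay between CYP71B22 at -0.34 and CYP71B35 at 0.46, and the 10 calcium and MAP kinase genes between CML38 at -0.32 and AT1G76640 at 0.52. All 7 members of the list of receptor-like kinases and their ligands lay below 0, from RLP18 at -0.29 to CLV3 at -0.01. Of all 12137 named genes, 5166 lay below 0, and receptor-like kinases known by a locus code alone are not in this list.

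The lists that touch growth in darkness and the other lists below also held no member past 1.5-fold, as with most named genes. No gene of the list of photoreceptors and photomorphogenesis was matched by name, and PIF7 is given above with the bHLH factors. The 11 light-harvesting and greening genes lay between HEMA3 at -0.22 and CHLI2 and PORB at 0.08, with a median of -0.04. The 25 listed genes of actin, tubulin, their motors and other cytoskeleton proteins lay between ATMAP65-6 at -0.18 and NET2D at 0.26. The 34 listed genes of vesicle trafficking and autophagy lay between VPS24.1 at -0.27 and VPS2.2 at 0.29. The 5 listed cell cycle genes lay between CDC27a at -0.15 and cdc2cAt at 0.03. SAG29, the senescence gene that also encodes the sugar carrier SWEET15, had -0.15. GI, the one measured gene of the circadian clock list, had -0.10. The 4 listed heat shock genes lay between Hsp70-2 at -0.20 and AT5G48570 at 0.39. The 3 listed zinc finger factors, a part of that family, lay between IDD16 at -0.17 and ZAT7 at 0.15. The trichome factor TRY had -0.09, and AT1G77750, the single ribosomal gene matched, had 0.07.

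**Figure D4:**
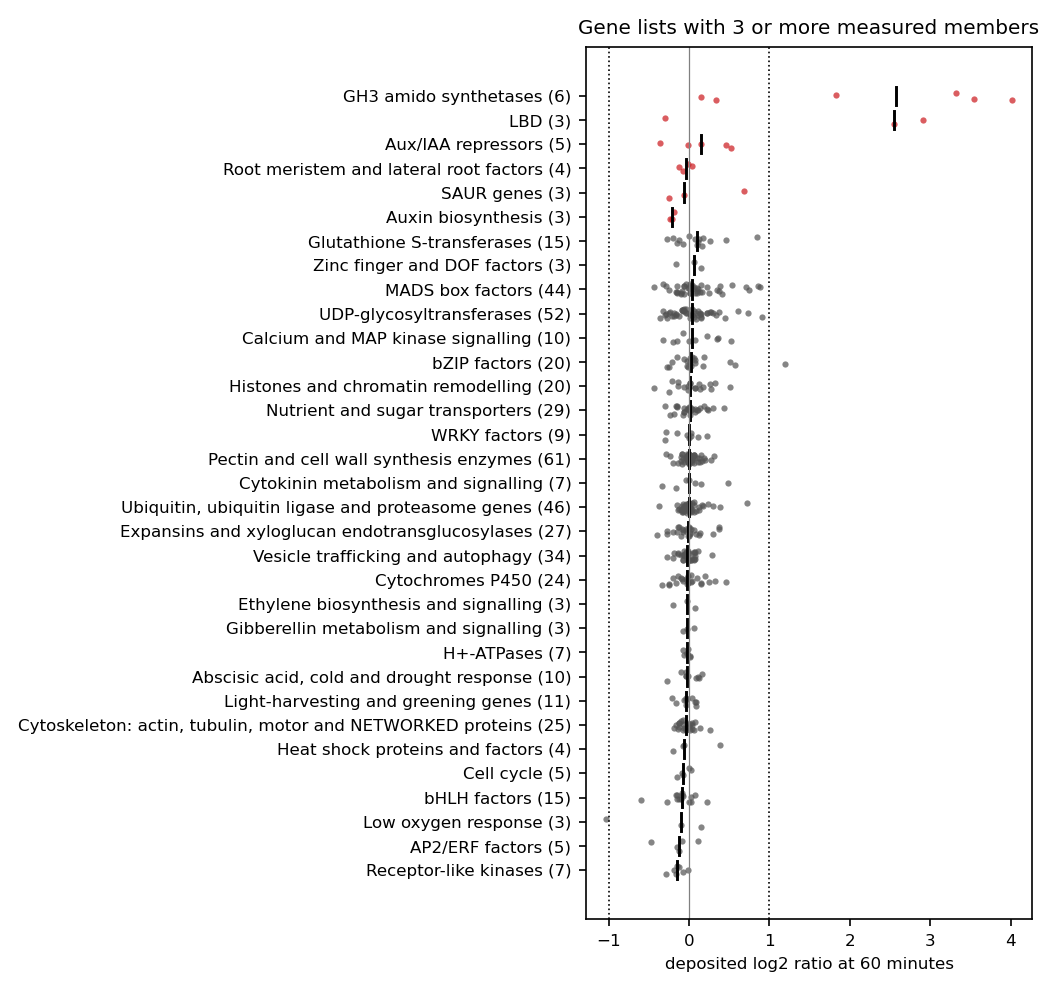
Deposited log2 ratio at 60 minutes of each measured gene (points) for the gene lists with 3 or more measured members, the number measured in parentheses; red points are auxin lists, grey points other lists, black bars list medians, and dotted lines 2-fold. The GH3 and LBD medians lie at 2.57 and 2.56, and the medians of all other lists drawn lie within 0.25 of 0.

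By position, chromosome 1 held 18 of the 42 genes past 2-fold (42.9%) and 91 of the 272 past 1.5-fold (33.5%), against 25.8% of all named genes. On the negative side it held 4 of 41 (9.76%). Among the 2-fold genes its share was 2 of 12 (16.7%) for those positive at both earlier times, and 12 of 23 (52.2%) for those positive at neither. Pseudogenes made up 1 of 42 (2.38%), 10 of 272 (3.68%) and 4 of 41 (9.76%), against 2.73% of all named genes. Of 5529 adjacent protein-coding pairs with both members measured, 218 held at least 1 gene past 1.5-fold on the positive side, and 9 held 2. Counted over these pairs, 18 of 227 positive genes (7.93%) had a positive neighbour, against 2.24% of all named genes that were positive. The rank correlation between neighbours was 0.194 over all 5529 pairs, a description of values that share 1 array, on which adjacent probe numbers had 0.151. Among the 9 pairs were AT1G61390 (1.29) with AT1G61400 (0.86), AT5G39370 (1.16) with AT5G39380 (0.60), and the MADS gene AGL72 (0.74) with TRM24 (0.93).

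Probes without a gene name held a further share of the positive side. At 2-fold, 60 of 9738 were positive (0.616%) and 0 were negative (0%). The highest value of the whole array was such a probe, number 532171, with 1.38, 3.42 and 4.33 at 20, 40 and 60 minutes, the last a ratio of 20.07. Probe 535570 had 1.08, 1.90 and 2.36, and probe 536722 had 1.19, 2.49 and 2.25. Of the 56 with a value at all 3 times, 30 (53.6%) were at least 1.5-fold positive at both earlier times and 13 (23.2%) at neither, against 28.6% and 54.8% of the named genes past 2-fold. Of the 30, 10 lie at regular distances from one another in probe number, and whether they are copies of a sequence or control spots was not tested. Without these 10 the counts were 20 of 46 (43.5%) and 13 of 46 (28.3%).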

How the data were processed

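RNA of IAA-treated and ethanol-treated seedlings was compared on 3 arrays with 2 channels, 1 per time. The authors deposited log2 values. Each is the log2 of a ratio rounded to 2 decimals, within a tolerance of 1e-05, which was read from the values. The sources used here do not give the dyes, the numerator, the background correction or the normalization. The values were used as deposited. Spot intensities were not analysed here, and precision is limited by how few arrays there are.

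Of 21939 probes, 12195 had 1 gene in the platform annotation, 1 had several and 9743 were not listed. Of the 12195, 12186 matched a RefSeq gene table (TAIR10.1), 12142 by gene identifier and 44 by locus code, and 9 kept the annotation's name. Probes of 1 gene were averaged. No genome, promoter or protein sequence was used here.

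Calls are sizes of ratio (1.5-fold, 2-fold and 3-fold) and not tests. The members, the 47 gene lists and the rules were chosen with earlier results of these data known. The patterns of 10 lists were corrected after they were matched, because symbols had caught other genes (pectin enzymes, gibberellin, clock, cytoskeleton, vesicles, ubiquitin, chromatin, dark-induced genes) or to fit the members found (SAUR, transporters). Named were the 20 highest and 10 lowest genes with ties, all measured auxin-list members, the 1.5-fold members of other lists or else their extremes, and further 2-fold genes, 133 before the last. The counting was tested on simulated data. Alternatives were other thresholds, centring, scaling, probe rules, subtraction of neighbouring probes and symbol matching. Tools were Python 3.11.15, pandas 2.3.3, numpy 2.4.6 and matplotlib 3.10.9.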

Additional observations from a re-analysis of the deposited data

Results flagged for a closer look

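A pair of 2-fold positive genes stood on opposite sides at 20 and 60 minutes, at least 1.5-fold each time. AT1G66360 was 2.96 higher on the log2 scale at 60 minutes (1.36) than at 20 minutes (-1.60). AT1G65200 was 1.73 higher at 60 minutes (1.10) than at 20 minutes (-0.62). Among the 11 lowest genes, AT5G46300 was on opposite sides at 60 minutes (-0.86) and 40 minutes (0.98), a difference of -1.84. With 1 array at each time these differences were not tested.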

How the results depend on the processing

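The count of 42 named genes at least 2-fold positive was 272 at 1.5-fold, 10 at 3-fold and 161 once the 3 arrays were scaled to the same median absolute deviation, which multiplies the 60 minute values by 1.45. With unnamed probes added the count was 102, against 477, 23 and 299 under the same settings. On the negative side, 3 named genes became 41, 0 and 18, and with unnamed probes 3 became 75, 0 and 30. Of the 2-fold positive genes, 12 were 1.5-fold positive at 20 minutes, and 33 of the unnamed probes were, or 23 without 10 regularly spaced ones, comparisons chosen after seeing the data. At 40 minutes they were 19, or 12 at a 2-fold threshold there, and 40 of the unnamed probes, or 30 without those 10. Centring, the median over probes and the probe farthest from 0 kept all 42 genes, and subtracting neighbouring probe numbers kept 37 of them. Scaling moved 94 of 133 named values by more than the array's robust SD, subtraction of neighbours moved bZIP58 to 1.07, and the probe farthest from 0 moved UGT85A3 to 1.59. Matching by symbol alone moved the low oxygen median to 0.02. A promoter motif count was planned and was not run, since no promoter sequence was used. No paired analysis was possible because the result comes from no test and each time has 1 array. The numerator of the ratio is not given, so a turned sign would exchange both sides. Background and spot quality were not analysed here, and neighbouring probe numbers had a rank correlation of 0.151 over 21923 pairs, a description of the layout.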

Other observations

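Of the unnamed probes at least 2-fold positive at 60 minutes, 10 lay at regular distances in probe number from one another, a pattern noticed after the values were seen. The medians of their log2 ratios were 1.14, 1.37 and 1.22 over the 20, 40 and 60 minute arrays, and on the last they lay between 1.17 and 1.76. What these probes measure is not given in the tables used here, and whether they are copies of a sequence or control spots was not tested.

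Of the 55 genes with several probes, the median distance between their highest and lowest probe was 0.12 on the log2 scale, and 90% were within 0.48. The exceptions past 1 were UGT85A3 (0.23 and 1.59) and AT5G22700 (-0.09 and 1.36, mean 0.63). AT1G17330 (-0.12 and 0.82) and AT1G27220 (0.03 and 0.64) also had 1 probe near 0 and 1 past 1.5-fold. The other named genes rest on 1 probe each.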
